A study of Mus musculus with 12 samples.

Results

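The 47 genes described here encode lysosomal hydrolases, lysosomal membrane proteins, proteins of lysosomal acidification, granulin precursor and the transcription factor Tfeb. They were taken from a list of gene symbols drawn up with earlier results of these data known, with no measured value in the rule, and each symbol matched 1 of the 52550 genes in the files. All 47 passed the filter on low counts that left 16823 genes for testing. By role they comprised 11 peptidases, 11 glycosidases, 5 sulfatases, 7 lipid hydrolases or lipid-binding proteins, 8 membrane proteins, 3 acidification genes and 2 others (Grn and Tfeb). RNA was sequenced from the mouse mammary tumour cell lines D2A1 and D2.OR, which derive from D2 hyperplastic alveolar nodules and are used as a proliferative and a dormant model. Each line was grown for 7 days either on plastic (2D) or on a layer of growth-factor-reduced Matrigel with dilute Matrigel in the medium (3D), and gave 3 libraries in each culture, 12 in all. Whether the medium was shared is not settled by the study's methods. They put 2D and 3D cells of the dormancy assays in the same low horse serum medium with hydrocortisone, cholera toxin and insulin, but for sequencing they refer to a section in which 2D cells grow in high-glucose medium. Matrigel cultures were also released with an ice-cold recovery solution before RNA extraction, so matrix, harvest and possibly medium cannot be told apart in a comparison of 3D with 2D. The replicate number is also the batch number, and 10 wells of a line were pooled to obtain enough RNA. Each line is a single established line, and the labels do not say how independent the replicate cultures were, so p-values measure the spread between these libraries.

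Lysosomes are acidic compartments in which material from endocytosis, phagocytosis and autophagy is broken down. A proton pump, the V-ATPase, acidifies the lumen, soluble hydrolases digest protein, glycans, sulfated glycans and lipids, and heavily glycosylated membrane proteins line the limiting membrane and carry products out. Many lysosomal genes are transcribed under TFEB and its relatives TFE3 and MITF, which bind a short palindromic E-box near the start sites and are held in the cytoplasm when mTORC1 is active at the lysosome. Lysosomal β-galactosidase activity at raised pH is widely used as a sign of senescence, and the study stained for it in these lines.

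Library totals lay between 47589613 and 73325057 counts, with a median of 61747090. The epithelial marker Krt18 and the mesenchymal marker Vim were above 1 TPM (a transcript level scaled for gene length and library size) in all 12 libraries, while the epithelial markers Krt19 and Krt5 and the mesenchymal marker Cdh2 reached 1 TPM in 0 libraries and Cldn4 in 1. Zeb1, another mesenchymal marker, lay at 11.8 to 24.1 TPM in D2A1 and at 1.23 to 10.8 TPM in D2.OR. The mesenchymal markers Col1a1 and Vim leaned the other way. Col1a1 lay at 0.26 to 3.33 TPM in D2A1 and 7.65 to 57.1 TPM in D2.OR, and Vim at 733 to 3140 and 2830 to 5310 TPM. Fn1, of the same list, overlapped between the lines, at 281 to 2710 and 640 to 1620 TPM. The epithelial markers Krt8, Epcam and Cdh1 were low in D2A1, where Krt8 reached at most 2.31 TPM and Epcam at most 0.17 TPM, against 227 to 1020 TPM and 1.54 to 5.42 TPM in D2.OR. Lysosome genes are abundant in macrophages, and 5 of the 6 macrophage markers (Ptprc, Csf1r, Adgre1, Itgam and Lyz2) stayed below 1 TPM in every library, as did all 3 endothelial markers. The exception, Cd14, ranged from 7.69 to 185 TPM, and the summed macrophage list was 17.8 to 46.7 TPM in D2A1 2D, 30.4 to 186 in D2A1 3D, 12.5 to 49 in D2.OR 2D and 7.83 to 52.3 in D2.OR 3D. Arsa, Atp6v1h, Cln3, Ctsa, Ctsb, Ctsz, Grn, Hexa, Idua, Lamp1, Npc1, Ppt1 and Sgsh share exonic bases with an expressed gene on the opposite strand, and their values may include its reads, since the strand setting of the counting is not given. In these bulk libraries fewer cells of a kind and less RNA per cell cannot be told apart.

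The promoter windows of 5 lysosome genes are printed here because they hold the E-box read by the TFEB family, and because their genes represent a peptidase pair, the channel and coat of the membrane, and the pump. Each stretch runs 5′ to 3′ from 110 bases before the start site to 20 bases after it, in RefSeq coordinates on GRCm38.p6. Capitals mark CACGTG, the E-box core, or its extension TCACGTGA, which contains the core. The Ctsa stretch lies at chr2:164833663-164833792 (+), Ctsd at chr7:142387808-142387937 (-), Lamp1 at chr8:13159051-13159180 (+), Mcoln1 at chr8:3500409-3500538 (+) and Atp6v0d1 at chr8:105566045-105566174 (-).
Ctsa: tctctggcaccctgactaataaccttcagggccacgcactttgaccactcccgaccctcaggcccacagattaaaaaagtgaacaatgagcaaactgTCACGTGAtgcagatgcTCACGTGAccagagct
Ctsd: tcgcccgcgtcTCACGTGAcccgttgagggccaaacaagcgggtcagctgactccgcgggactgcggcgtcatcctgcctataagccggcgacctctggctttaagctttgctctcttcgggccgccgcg
Lamp1: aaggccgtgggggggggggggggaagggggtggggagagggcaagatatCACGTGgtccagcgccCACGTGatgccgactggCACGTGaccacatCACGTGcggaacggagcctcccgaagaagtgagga
Mcoln1: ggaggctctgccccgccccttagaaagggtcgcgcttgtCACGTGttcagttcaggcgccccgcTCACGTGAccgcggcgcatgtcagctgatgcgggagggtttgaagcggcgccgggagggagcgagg
Atp6v0d1: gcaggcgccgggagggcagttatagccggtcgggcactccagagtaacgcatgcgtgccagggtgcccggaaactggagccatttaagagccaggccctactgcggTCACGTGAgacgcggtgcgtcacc

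A promoter window of 300 bases was available for 40 of the 47 genes (not for Ctsb, Galns, Asah1, Npc1, Ctsh, Atp6v1h and Cln8). The core CACGTG, which reads the same on both strands, occurred in 13 of these 40 genes (32.5%), against 8.09% of the 27025 genes with a window. The 13 were Ctsa, Ctsd, Ctsf, Ctsl, Gaa, Gla, Naglu, Arsa, Sgsh, Cln3, Lamp1, Mcoln1 and Atp6v0d1. The longer TCACGTGA occurred in 6 of 40 (15%), against 1.12% of all genes. Ctsa held 2 copies of it, beginning 13 bases before and 5 bases after the start site, and Lamp1 held 4 cores within 61 bases of its start but no copy of the longer form. A match describes the letters of the window and does not show that a factor bound there.

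Lysosome transcripts were abundant in both lines. Summed over the 47 genes they reached 9537 ± 673 TPM (SD, n = 3) in D2A1 2D, 6252 ± 998 in D2A1 3D, 11760 ± 396 in D2.OR 2D and 9790 ± 1232 in D2.OR 3D. The 3 D2A1 3D libraries, at 7376, 5911 and 5469 TPM, were the 3 lowest of the 12. By median TPM over all libraries the order began with the tetraspanin Cd63 (1161), the cysteine protease Ctsb (958), the saposin precursor Psap (953), the cysteine protease Ctsl (753), the coat protein Lamp1 (679), the aspartic protease Ctsd (609) and Grn (538), and these 7 genes made up 64.5% of the summed medians. The lowest were Ctsh (4.03), Ctsk (0.315) and Ctss (0.18), cathepsins best known from lung, osteoclasts and antigen-presenting cells respectively.

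**Figure D1:**
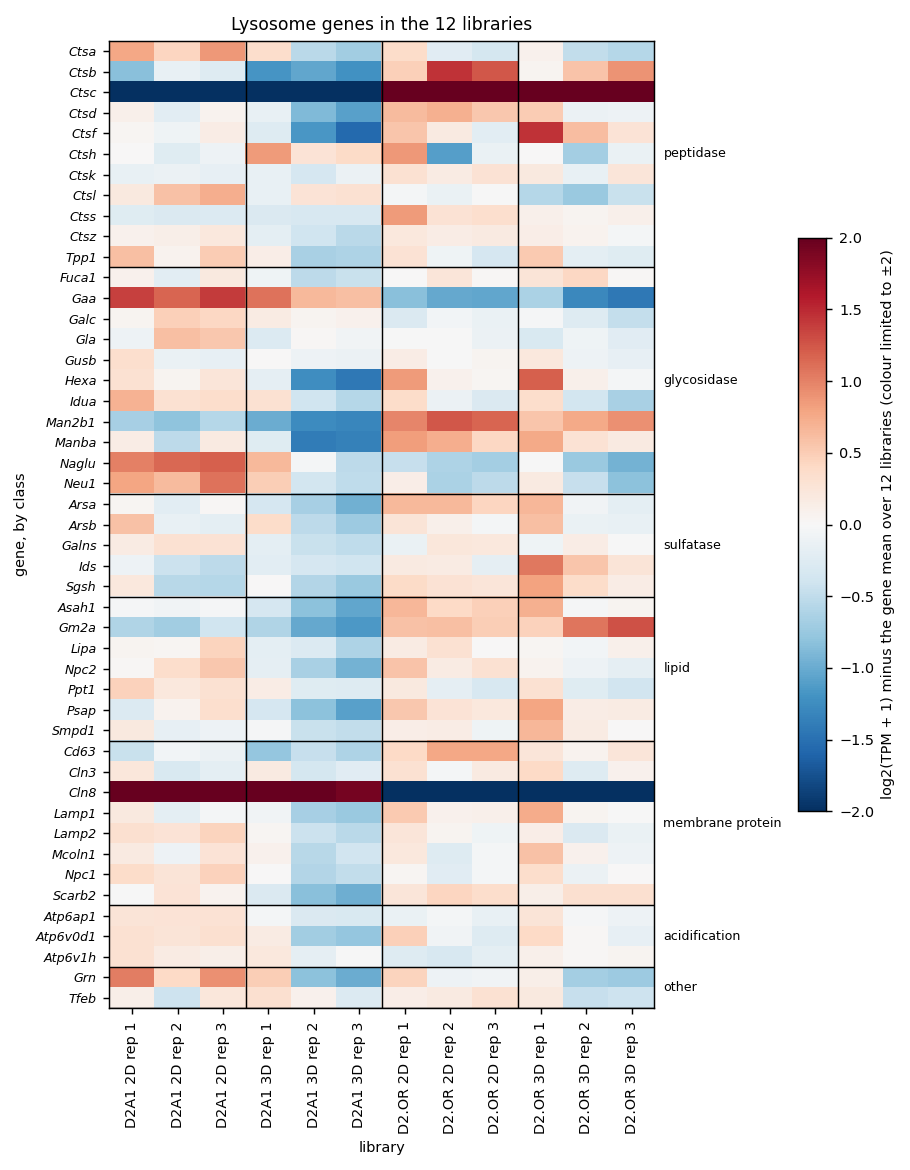
Level of each lysosome gene (rows, by class) in each of the 12 libraries (columns), as log2(TPM + 1) minus the mean of the gene over the libraries, with the colour limited to ±2. Ctsc and Cln8 split the lines in opposite directions in all 12 libraries, and most rows are lowest in D2A1 3D replicates 2 and 3.

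**Figure D2:**
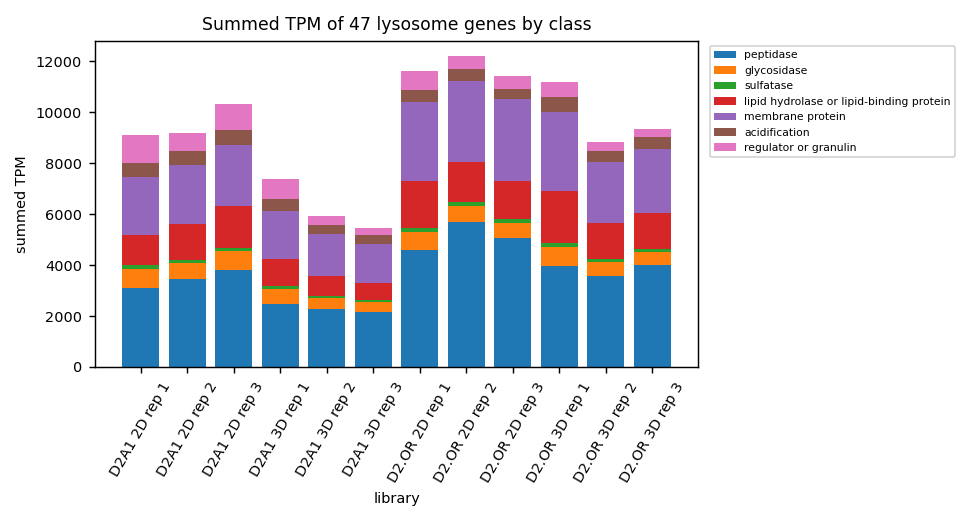
Summed TPM of the 47 lysosome genes in each library, stacked by class. Bars reach from 5469 TPM in D2A1 3D replicate 3 upwards, and peptidases and membrane proteins make up most of each bar.

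The first question was how the dormant and the proliferative line differed on plastic. In 2D the lysosome genes differed in both directions. Of the 47, 16 (34%) were higher in D2.OR and 13 (27.7%) lower at an edgeR adjusted p under 0.05, while 18 did not pass. Among all 16823 genes tested the shares were 25.4% and 24.4%, so the lower share lay near the background. At least 2-fold, 6 members were higher and 4 lower (12.8% and 8.51%), against 14.5% and 10.2% of all genes. The median log2 fold change of the members was 0.19, against -0.00338 over all genes tested. Without D2A1 2D replicate 1 these medians were 0.0317 and 0.0358, without batch 1 they were 0.0529 and 0.0269, and without batch 3 they were 0.311 and -0.00342. Within batches 1, 2 and 3 the member median was 0.25, 0.29 and -0.00508, so the lean of the members in 2D differed between libraries. The summed TPM was 1.28, 1.33 and 1.11 times as high in D2.OR as in D2A1 in batches 1, 2 and 3.

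In 3D the balance moved toward D2.OR. There 28 members (59.6%) were higher in D2.OR and 6 (12.8%) lower, against 27.7% and 26.1% of all genes. At least 2-fold, 10 were higher and 3 lower (21.3% and 6.38%), against 16.7% and 10.7%. The median was 0.43 on the log2 scale, against 0.000517 over all genes, and the summed TPM was 1.52, 1.5 and 1.71 times as high in D2.OR in the 3 batches. All 16 members that were higher in D2.OR in 2D were also higher in 3D. Of those lower in 2D, 5 were lower in 3D as well (Cln8, Gaa, Naglu, Galc and Ctsl), and 1, Npc1, was lower in 2D but higher in 3D. Another 12 members passed in 3D only, 7 in 2D only and 6 in neither, and whether the line difference itself changed with culture is tested by the interaction given further on.

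These counts moved with single libraries and with the fit. Without the batch term 19 members passed in 2D, with 43.9% of all genes called. In 2D 12 members (8 higher, 4 lower) passed without batch 2, 16 (12 and 4) without batch 3 and 19 (13 and 6) without D2.OR 2D replicate 2, with 24.9%, 31.8% and 37.4% of all genes called, against 49.8% in the fit reported. In 3D 21 (19 higher, 2 lower) passed without batch 2, with 31% of all genes called against 53.8%. Without D2A1 3D replicate 2 the 3D counts were 22 higher and 3 lower, and without D2.OR 3D replicate 2 they were 24 and 3. Of all genes 42.2% and 44.2% were called in these fits. The balance in 2D moved both ways. It was 15 higher and 16 lower without D2A1 2D replicate 1 and 13 higher and 15 lower in limma on log2(TPM + 1), which differs in test, normalization and scale, with 51.2% and 47.2% of all genes called. The median of all genes was -0.0747 in that limma fit. The 13 lower calls became 8 without D2.OR 2D replicate 1, 6 without D2A1 2D replicate 2 or 3, and 5 without D2.OR 2D replicate 3, beside 17, 14, 16 and 15 higher, and the share of all genes called fell as well, to 42.2%, 39.6%, 44.3% and 39.1%. In every alternative that tested them, with each library left out in turn, 11 of the 29 members called in 2D kept their call (Asah1, Cd63, Cln8, Ctsb, Ctsc, Ctss, Gaa, Gm2a, Man2b1, Naglu and Neu1), and 21 of the 34 called in 3D did (the same genes except Naglu and Neu1, with Arsa, Ctsd, Ctsf, Fuca1, Hexa, Ids, Lamp1, Manba, Psap, Scarb2, Sgsh and Smpd1). Cln8 and Ctss were not tested in the fit that required at least 10 counts in every library.

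**Figure D3:**
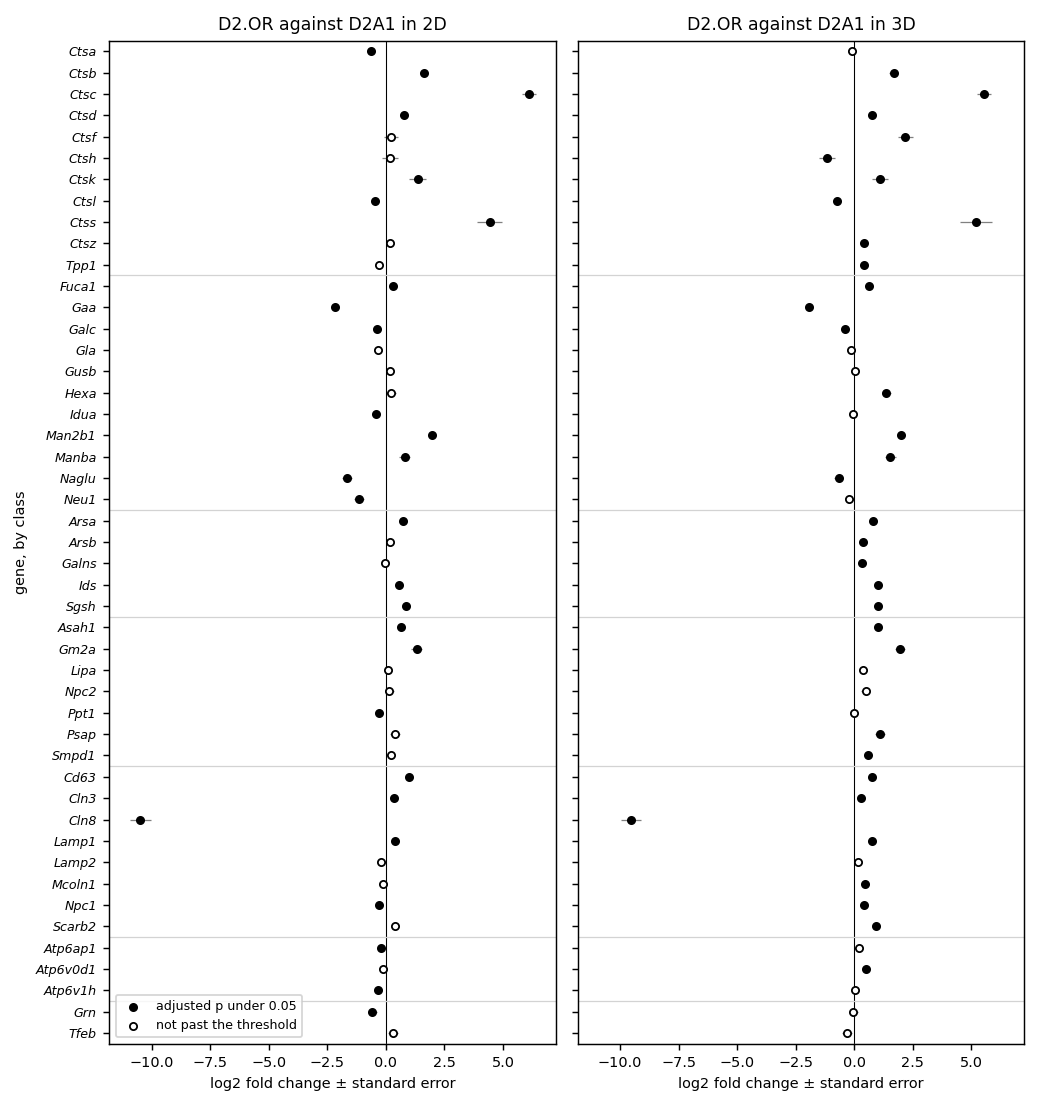
Log2 fold change of each lysosome gene between D2.OR and D2A1 in 2D (left) and 3D (right) with its standard error, by class. Positive values are higher in D2.OR and filled points have an edgeR adjusted p under 0.05, which holds for 29 genes in 2D and 34 in 3D, with Cln8 farthest to the left and Ctsc farthest to the right.

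The counts by class that follow rest on few genes each. Beside them stand the shares of all genes, 25.4% higher and 24.4% lower in D2.OR in 2D, and 27.7% and 26.1% in 3D. Among the peptidases the lines differed most in Ctsc, which encodes cathepsin C (dipeptidyl peptidase I), the enzyme that activates serine proteases of immune granules. Ctsc (chr7:88278085-88310888, plus strand) read 11.6, 7.90 and 7.45 TPM in D2A1 2D and 8.55, 12.5 and 12.6 TPM in D2A1 3D. In D2.OR it read 632, 575 and 384 TPM in 2D and 737, 441 and 409 TPM in 3D. The groups of the 2 lines did not come near each other. Its log2 fold change was 6.10 ± 0.29 (SE) in 2D and 5.54 ± 0.28 in 3D, with edgeR adjusted p of 8.34e-07 and 1.2e-06.

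Ctsb encodes cathepsin B, a broad cysteine protease that is also secreted by tumour cells. It read 557, 892 and 827 TPM in D2A1 2D and 1378, 2707 and 2333 TPM in D2.OR 2D. In 3D it read 435, 481 and 425 TPM in D2A1 and 1025, 1473 and 1852 TPM in D2.OR. The lines did not overlap in either culture, and the log2 difference was 1.62 ± 0.18 in 2D and 1.68 ± 0.18 in 3D (edgeR adjusted p = 9.53e-05 and 7.35e-05). Ctsl, the related cathepsin L, went the other way, with 875 to 1268 TPM in D2A1 2D against 697 to 761 TPM in D2.OR 2D, and 688 to 950 TPM in D2A1 3D against 455 to 562 TPM in D2.OR 3D. Its log2 difference was -0.45 ± 0.13 in 2D and -0.75 ± 0.13 in 3D.

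Ctss encodes cathepsin S, which trims the invariant chain in antigen-presenting cells. It had 0 to 2 counts in every D2A1 library and 14 to 65 counts in D2.OR, so it was low everywhere. Set against a floor of 3 counts per library, D2.OR exceeded D2A1 at least 10.8-fold in 2D and at least 5.31-fold in 3D. Ctsk, the bone collagen protease cathepsin K, stayed under 1 TPM in all libraries, with log2 differences of 1.35 ± 0.35 and 1.10 ± 0.35. Ctsf (cathepsin F) differed little in 2D, at 4.78 to 5.82 TPM in D2A1 and 4.33 to 8.04 TPM in D2.OR. In 3D it read 4.14, 1.74 and 1.08 TPM in D2A1 and 15.8, 8.40 and 6.44 TPM in D2.OR, a log2 difference of 2.18 ± 0.31 (edgeR adjusted p = 0.000382). Ctsh, the aminopeptidase cathepsin H, was lower in D2.OR in 3D by a log2 difference of -1.17 ± 0.34 at levels of 2.24 to 8.31 TPM. Ctsa, the protective protein that holds neuraminidase and β-galactosidase together, was lower in D2.OR in 2D (log2 -0.64 ± 0.16) and did not pass in 3D (-0.10 ± 0.16). In total 5 of 11 peptidases were higher (45.5%) and 2 lower (18.2%) in 2D, and 8 higher (72.7%) and 2 lower (18.2%) in 3D.

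Glycosidases trim sugars from glycoproteins, glycolipids and glycosaminoglycans. In 2D 3 of 11 were higher (27.3%) and 5 lower (45.5%) in D2.OR, and in 3D 4 were higher (36.4%) and 3 lower (27.3%). The higher share in 2D and the lower share in 3D lay near those of all genes, 25.4% and 26.1%. Gaa encodes the acid α-glucosidase that degrades glycogen. It read 224, 195 and 230 TPM in D2A1 2D and 186, 137 and 132 TPM in D2A1 3D, against 48.2, 42.3 and 41.8 TPM in D2.OR 2D and 55.5, 34.8 and 31.5 TPM in D2.OR 3D. Every D2A1 library was above every D2.OR library, with a log2 difference of -2.18 ± 0.14 in 2D and -1.94 ± 0.13 in 3D (edgeR adjusted p = 3.73e-06 and 6.58e-06). Man2b1, the lysosomal α-mannosidase, was the reverse. It lay between 38.7 and 64.9 TPM in the 6 D2A1 libraries and between 142 and 229 TPM in the 6 D2.OR libraries, a log2 difference of 1.98 ± 0.14 in each culture.

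Naglu, which removes N-acetylglucosamine from heparan sulfate, read 41.0, 45.3 and 46.8 TPM in D2A1 2D against 14.2, 12.6 and 11.98 TPM in D2.OR 2D. In 3D it read 31.5, 19.2 and 13.5 TPM in D2A1 against 19.8, 11.5 and 9.82 TPM in D2.OR, so the groups overlapped there across batches although each batch had the higher value in D2A1. The log2 difference was -1.67 ± 0.21 in 2D and -0.67 ± 0.21 in 3D. Neu1, the lysosomal sialidase, differed by -1.15 ± 0.21 in 2D and -0.21 ± 0.21 in 3D, and the latter did not pass. Galc, the galactosylceramidase of myelin lipid turnover, was lower in D2.OR by -0.39 ± 0.13 and -0.38 ± 0.13. Hexa, the α subunit of β-hexosaminidase, did not pass in 2D (0.23 ± 0.18), where leaving out D2A1 2D replicate 1 gave -0.0109, and was 1.36 ± 0.18 higher in 3D (edgeR adjusted p = 0.00031). Gusb, β-glucuronidase, often used as a reference gene, passed in neither culture, at 71.7 to 102 TPM over all 12 libraries.

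All 5 sulfatases, which remove sulfate from glycosaminoglycans and sulfatide, were higher in D2.OR in 3D, and 3 of them in 2D. Arsa, Ids and Sgsh kept the 3D call in every alternative, while Arsb passed in 13 and Galns in 15 of 22. Sgsh, the heparan N-sulfatase, read 7.53, 4.06 and 4 TPM in D2A1 2D and 8.66, 8.05 and 7.77 TPM in D2.OR 2D, without overlap. Its log2 difference was 0.85 ± 0.16 in 2D and 0.99 ± 0.16 in 3D. Arsa, arylsulfatase A, the most abundant of the 5, read 36.4 to 43.4 TPM in D2A1 2D and 57.0 to 66.8 TPM in D2.OR 2D, with log2 differences of 0.74 ± 0.15 and 0.81 ± 0.15. Ids, the iduronate sulfatase, differed by 0.55 ± 0.12 in 2D and 0.99 ± 0.12 in 3D.

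Of the 7 lipid hydrolases and lipid-binding proteins, 2 were higher (28.6%) and 1 lower (14.3%) in D2.OR in 2D, and 4 higher (57.1%) with none lower in 3D. Gm2a, the activator that presents ganglioside to β-hexosaminidase, read 13.2, 12.4 and 15.4 TPM in D2A1 2D and 31.4, 31.9 and 29.2 TPM in D2.OR 2D. In 3D it read 13.2, 9.56 and 8.71 TPM in D2A1 and 28.6, 44.1 and 51.0 TPM in D2.OR. The lines were apart in both cultures, by log2 1.31 ± 0.23 in 2D and 1.95 ± 0.23 in 3D (edgeR adjusted p = 0.00142 and 0.000158). Psap, the most abundant of the class and the source of the 4 saposins, did not pass in 2D (0.39 ± 0.21). It read 675, 484 and 403 TPM in D2A1 3D against 1477, 949 and 956 TPM in D2.OR 3D, a log2 difference of 1.09 ± 0.21. Asah1, the acid ceramidase, was higher in D2.OR in both cultures (0.66 ± 0.12 and 0.99 ± 0.12).

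Among the membrane proteins Cln8 was nearly absent from D2.OR. Cln8 (chr8:14881335-14901720, plus strand) encodes an endoplasmic reticulum receptor that loads newly made lysosomal enzymes for transport to the Golgi, and belongs to the genes of neuronal ceroid lipofuscinosis. It had 1749, 3135 and 2824 counts in D2A1 2D and 1981, 1877 and 2031 in D2A1 3D, against 4, 1 and 0 counts in D2.OR 2D and 1, 1 and 5 in D2.OR 3D. Counts per total were 1750 times as high in D2A1 in 2D (95% exact interval 750 to 5400, counting error only) and 831 times in 3D (403 to 2070). In TPM it lay between 18.1 and 30.3 in D2A1 and at 0.22 or less in D2.OR, and the edgeR adjusted p was 4.99e-07 in 2D and 6.83e-07 in 3D. Its fitted log2 fold change, -10.48 in 2D, ran from -12.04 to -4.66 under the alternatives, and with so few counts in D2.OR its size is not a bound.

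Cd63, a tetraspanin of late endosomes and exosomes, read 852, 1114 and 1062 TPM in D2A1 2D and 1517, 1967 and 1969 TPM in D2.OR 2D. It was higher in D2.OR by 0.98 ± 0.11 in 2D and 0.77 ± 0.11 in 3D (edgeR adjusted p = 0.000137 and 0.000488). Lamp1 and Lamp2 encode the main glycoproteins of the lysosomal coat. Lamp1 was higher in D2.OR by 0.38 ± 0.10 in 2D and 0.73 ± 0.10 in 3D, at 397 to 763 TPM in D2A1 and 664 to 1116 TPM in D2.OR. Lamp2 passed in neither culture, with log2 differences of -0.21 ± 0.12 and 0.15 ± 0.12. Npc1, the cholesterol exporter, was lower in D2.OR in 2D (-0.31 ± 0.11) and higher in 3D (0.43 ± 0.11). The 2D call of Npc1 passed in 10 of 22 alternatives and its 3D call in 20. In all, 3 of 8 membrane proteins were higher (37.5%) and 2 lower (25%) in 2D, and 6 higher (75%) and 1 lower (12.5%) in 3D.

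Of the 3 acidification genes 2 were lower in D2.OR in 2D and 1 was higher in 3D. Atp6v1h, a regulatory subunit of the V-ATPase, read 77.6 to 88.8 TPM in D2A1 2D and 56.8 to 62.6 TPM in D2.OR 2D, lower in D2.OR by -0.32 ± 0.09, and did not pass in 3D (0.04 ± 0.09). Atp6ap1, an accessory subunit, was -0.22 ± 0.08 in 2D (edgeR adjusted p = 0.048) and 0.20 ± 0.08 in 3D, where it did not pass. Atp6v0d1, a subunit of the membrane sector, did not pass in 2D and was higher in D2.OR in 3D by 0.48 ± 0.16 (edgeR adjusted p = 0.026). Grn, the precursor of progranulin and its granulins, was lower in D2.OR in 2D by -0.57 ± 0.20 and differed by -0.04 ± 0.20 in 3D. The 2D calls of Atp6ap1 and Grn passed in 6 and 10 of 22 alternatives. Tfeb itself passed in neither culture, with 14.2 to 22.9 TPM in D2A1 2D and 21.3 to 24.3 TPM in D2.OR 2D, and with log2 differences of 0.31 ± 0.20 and -0.32 ± 0.20.

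**Figure D4:**
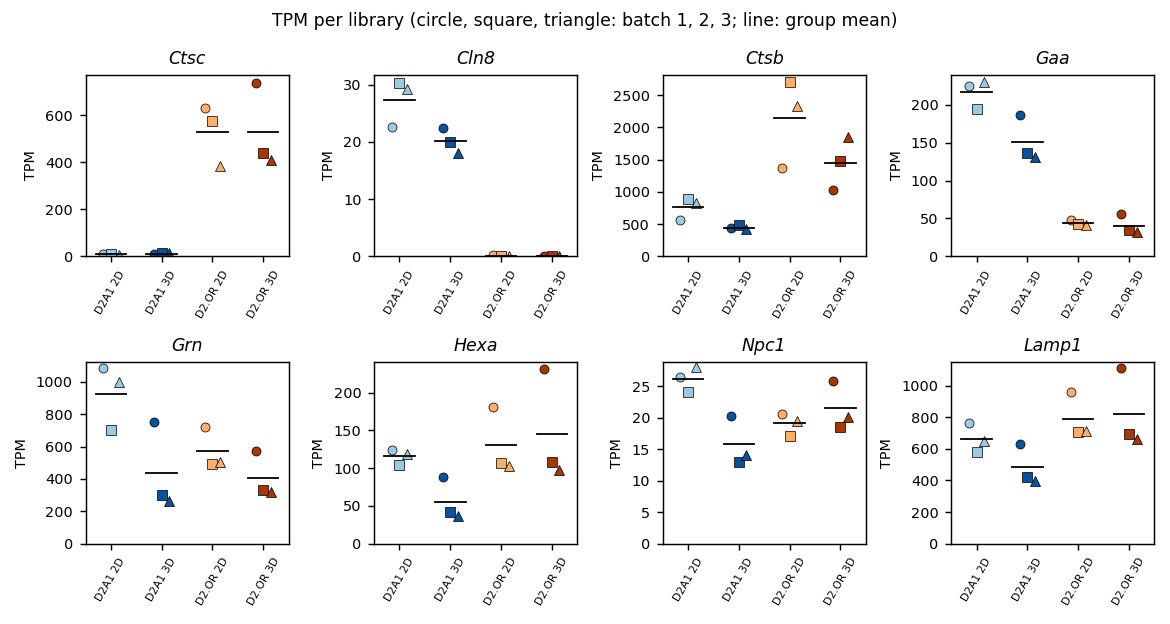
TPM of 8 lysosome genes in each library, with the batch as the marker shape and the group mean as a line. Ctsc, Cln8, Ctsb and Gaa separate the lines, while Hexa, Npc1 and Lamp1 have their lowest mean in D2A1 3D and Grn is lower in 3D than in 2D by mean in each line.

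The other genes of the pathway, 121 in 7 lists of which Rragb alone was not tested, are given by count. In 2D 33 (27.5%) were higher and 43 (35.8%) lower in D2.OR, and in 3D 51 (42.5%) were higher and 20 (16.7%) lower. The shares of all genes given above were 25.4% and 24.4% in 2D, close to the higher share here, and 27.7% and 26.1% in 3D. Without batch 2 the counts were 15 higher and 19 lower in 2D and 23 higher and 10 lower in 3D, and without batch 3 they were 21 and 23 in 2D. The lists that follow are small and are given as counts only. Of 25 further hydrolases and cofactors 7 were higher and 6 lower in 2D, and 15 higher and 4 lower in 3D. Siae, a sialate O-acetylesterase, was lower in D2.OR by -3.90 ± 0.16 and -4.30 ± 0.16 on the log2 scale, and Pla2g15, the lysosomal phospholipase A2, was higher by 2.67 ± 0.23 and 2.97 ± 0.23. Glb1, the gene of lysosomal β-galactosidase, was higher in D2.OR by 0.47 ± 0.16 in 2D and 0.79 ± 0.17 in 3D (edgeR adjusted p = 0.0396 and 0.00331). Its 2D call was lost in both limma fits, without batch 2, and without D2A1 2D replicate 1 or replicate 2.

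Of 22 further membrane proteins 9 were higher and 4 lower in 2D, and 14 higher and 1 lower in 3D. Ostm1, the β subunit of the lysosomal chloride exchanger, was higher in D2.OR by 1.02 ± 0.12 in 2D, and Slc29a3, a lysosomal nucleoside transporter, by 0.93 ± 0.12. The 15 further V-ATPase subunits gave 5 higher and 8 lower in 2D, and 5 higher and 1 lower in 3D. Atp6v1b2 was higher (1.55 ± 0.15 in 2D) and Atp6v1f lower (-0.64 ± 0.09 in 2D). Of 12 genes of mannose 6-phosphate tagging and sorting, 4 were higher and 4 lower in 2D, and 4 higher and 2 lower in 3D. The receptor gene Igf2r was higher in D2.OR by 1.36 ± 0.12 in 2D and the adaptor Gga3 lower by -1.02 ± 0.09.

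The list that joins the relatives of Tfeb with the mTORC1 docking machinery had more genes lower than higher in D2.OR in both cultures. Of its 15 tested genes 2 were higher and 11 lower in D2.OR in 2D, and 3 higher and 8 lower in 3D, with a median log2 fold change of -0.72 in 2D. Lamtor2, a Ragulator subunit, was lower by -0.92 ± 0.10 in 2D, the Rag GTPase gene Rraga by -0.74 ± 0.08 and Mtor by -1.46 ± 0.17. Tethering and positioning genes gave 3 of 15 higher and 6 lower in 2D, and 3 higher and 3 lower in 3D, with Borcs8 higher (0.86 ± 0.12 in 2D) and Vps33a lower (-0.59 ± 0.08). Of 16 autophagy genes 3 were higher and 4 lower in 2D, and 7 higher and 1 lower in 3D, with Uvrag higher by 0.87 ± 0.10 and Gabarapl1 lower by -1.41 ± 0.15 in 2D.

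The next question was how each line differed between 3D and 2D culture. In D2A1 12 of the 47 members (25.5%) were lower in 3D than in 2D at an edgeR adjusted p under 0.05 and none was higher, against 2.12% lower and 1.37% higher of all genes tested. By sign 42 of 47 were lower, with a median log2 change of -0.44 against 0.00368 over all genes. The 12 were the peptidases Tpp1, Ctsa and Ctsz, the glycosidases Hexa, Naglu, Neu1 and Idua, the sulfatase Galns, the ceramidase Asah1, the membrane proteins Npc1 and Lamp2, and Grn. Their edgeR adjusted p lay between 0.0319 and 0.0478, close to the threshold.

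Grn read 1083, 701 and 997 TPM in D2A1 2D and 749, 299 and 266 TPM in D2A1 3D. It fell by 1.11 ± 0.20 on the log2 scale, the groups overlapping only through 3D replicate 1. Hexa read 124, 104 and 118 TPM in 2D and 87.7, 41.8 and 36.6 TPM in 3D, without overlap, and fell by 1.08 ± 0.18. Naglu fell by 1.02 ± 0.21, Neu1 by 0.94 ± 0.21 and Ctsa by 0.88 ± 0.16. Tpp1, the tripeptidyl peptidase of late infantile ceroid lipofuscinosis, fell by 0.74 ± 0.13, from 152, 105 and 142 TPM to 109, 63.5 and 64.8 TPM, with an overlap through 2D replicate 2 and 3D replicate 1. Npc1 read 26.4, 24.2 and 28.1 TPM in 2D and 20.2, 13.0 and 14.0 TPM in 3D, again without overlap.

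The fall was present in each batch but differed in size between them. The median log2 difference of the 47 genes between 3D and 2D in D2A1 came to -0.27, -0.42 and -0.67 in batches 1, 2 and 3, with 42, 41 and 41 genes below 0. The summed TPM of D2A1 in 3D was 0.81, 0.643 and 0.53 times that in 2D in the 3 batches. Grn differed by -0.51, -1.09 and -1.77, and Hexa by -0.48, -1.15 and -1.55.

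**Figure D5:**
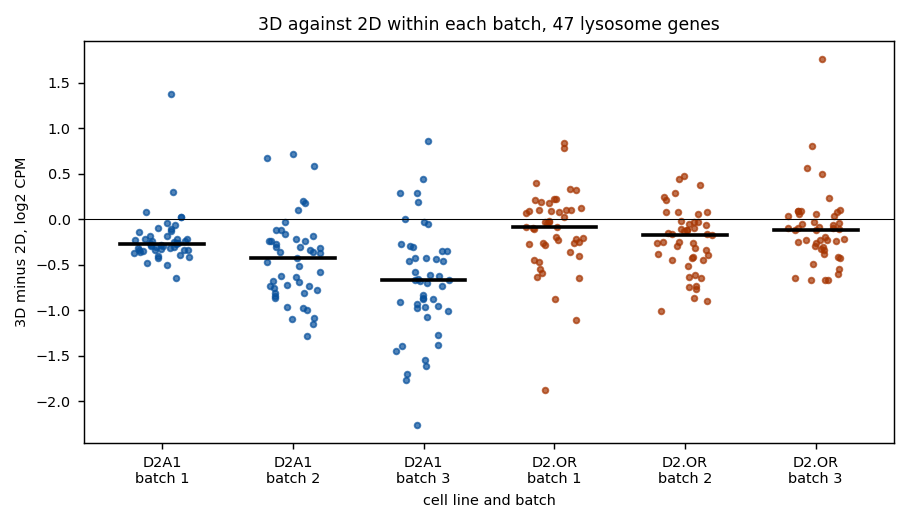
Difference in log2 CPM (counts scaled to library size) between 3D and 2D for each of the 47 lysosome genes (points) within each line and batch, with the median as a bar. The D2A1 medians are -0.27, -0.42 and -0.67 in batches 1, 2 and 3, and the D2.OR medians are -0.08, -0.17 and -0.11.

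The calls in D2A1 rested on single libraries and on the fit. Without the batch term none of the 12 passed in edgeR, with 26 members at an unadjusted p under 0.05 against 32 with it, while DESeq2 called 29 and limma on log2(TPM + 1) called 18 (4.52% of all genes). No member passed without batch 2 or batch 3, or without any 1 of D2A1 2D replicates 2 and 3, D2A1 3D replicates 2 and 3, D2.OR 2D replicates 2 and 3 and D2.OR 3D replicates 2 and 3. In these fits 21 to 33 members had an unadjusted p under 0.05. Over all genes 5282 of 16823 had an unadjusted edgeR p under 0.05 in the fit reported, and this number was not taken for the other fits. These gains and losses ran over all genes. The share of all genes called was 3.48% in the fit reported, 21.3% in DESeq2, 36.3% without batch 1, and from 0 to 0.609% in the fits with no member called. Omitting batch 1 gave 32 members (31 lower), and omitting only replicate 1 gave 27 for D2A1 2D, 23 (22 lower) for D2A1 3D, 9 for D2.OR 2D and 7 for D2.OR 3D, with 30.3%, 12.8%, 2.71% and 2.08% of all genes called in those 4 fits. The log2 change of all 12 stayed below 0 under every alternative.

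Further pathway genes in D2A1 gave 20 of 120 (16.7%) lower in 3D and none higher, and these calls rested on single libraries in the same way. None of the 20 passed without batch 2, batch 3, D2A1 2D replicate 2 or D2A1 3D replicate 2 or 3, where edgeR called 0 genes of all tested. From 1 to 3 passed in fits that omitted the batch term, replicate 3 of D2A1 2D, or replicate 2 or 3 of either D2.OR group, while 11 passed without D2.OR 2D or 3D replicate 1. More pathway genes were called lower without batch 1 (69), D2A1 2D replicate 1 (66) or D2A1 3D replicate 1 (37), and by DESeq2 (54). These comprised 7 hydrolases (among them Dpp7, Aga, Pld3, Ctso and Glb1), 3 membrane proteins (Tpcn1, Ctns and Clcn7), 3 V-ATPase subunits (Atp6v1a, Atp6v1d and Atp6v1e1), Igf2r, 4 genes of the mTORC1 docking list (Mtor, Flcn, Fnip1 and Rragc) and 2 autophagy genes (Map1lc3a and Tecpr1). Glb1 fell by 0.74 ± 0.17 on the log2 scale (edgeR adjusted p = 0.048), Dpp7, a dipeptidyl peptidase, by 0.89 ± 0.16 and Igf2r by 1.10 ± 0.12.

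In D2.OR no member passed between 3D and 2D in edgeR, where 1.62% of all genes did. At an unadjusted p under 0.05 there were 12 of 47, against 2967 of 16823 genes, DESeq2 called 7 and limma none. Omitting batch 1 gave 7 calls, with 8.38% of all genes called, and DESeq2 called 7.36%. Omitting only replicate 1 gave 3 for D2A1 2D and 1 each for D2A1 3D and D2.OR 3D (3.67%, 3.03% and 1.61% of all genes). The median was -0.15, and 35 of 47 were lower by sign. The smallest p belonged to Ids, at 25.1, 24.8 and 19.3 TPM in 2D and 46.7, 32.8 and 26.5 TPM in 3D (log2 0.56 ± 0.12, edgeR adjusted p = 0.0598), followed by Cd63 (-0.51 ± 0.11, 0.0629) and Ctsl (-0.56 ± 0.13, 0.0788). Of the other pathway genes 4 passed, with Gabarapl1 (0.78 ± 0.15) and Atp6v0a1 (0.65 ± 0.09) higher in 3D and Igf2r (-0.94 ± 0.12) and Lgmn, the asparaginyl endopeptidase (-0.92 ± 0.18), lower. None of the 4 passed without batch 2, batch 3, D2.OR 2D replicate 2 or 3, or D2.OR 3D replicate 2 or 3, and only Igf2r passed without the batch term. Only Atp6v0a1 and Igf2r passed without D2A1 2D replicate 2, D2A1 3D replicate 2 or 3, or D2.OR 3D replicate 1. These 4, like Dpp7 and Igf2r in D2A1, were named after their values were seen.

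Whether the lines responded differently was tested by the interaction, coded as the change in D2.OR minus the change in D2A1. No member passed in edgeR, where 0.0238% of all genes did. At an unadjusted p under 0.05 there were 19 of 47, against 2997 of 16823 genes, DESeq2's likelihood-ratio test called 8 and limma none. Omitting batch 1 gave 17 calls, and omitting only replicate 1 gave 11 for D2A1 2D and 3 for D2A1 3D. All genes followed, with 17.8%, 14.5% and 2.94% called in these fits and 5.61% in DESeq2. The interaction was above 0 for 37 of 47, with a median of 0.35 against -0.00556 over all genes. The 3 smallest p belonged to Npc1 (0.74 ± 0.15, edgeR adjusted p = 0.0974), Ctsf (1.94 ± 0.42, 0.11) and Hexa (1.13 ± 0.26, 0.112). Of the other pathway genes none passed in edgeR either, and the smallest p of each list belonged to Gabarapl1 (1.16 ± 0.21), Atp6v0a1 (0.83 ± 0.13), Dpp7 (1.09 ± 0.23), Clcn7 (0.64 ± 0.14), Mtor (edgeR adjusted p = 0.121), Sort1 (2.27 ± 0.72) and Arl8b (0.44 ± 0.17).

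The lysosome genes also differed between batches. In batch 1, against the mean of batches 2 and 3 over all 4 groups, 17 members (36.2%) were higher and 1 (2.13%) lower, against 8.48% and 4.8% of all genes, with a median of 0.33 against 0.0118. Every class contributed, with 3 each of the peptidases, glycosidases, sulfatases, lipid genes and membrane proteins and 1 each of the acidification genes and the regulators. Ctsf was higher by 0.82 ± 0.22, Hexa by 0.80 ± 0.13, Grn by 0.75 ± 0.15, Arsb by 0.67 ± 0.10, Idua by 0.65 ± 0.11 and Neu1 by 0.64 ± 0.15 on the log2 scale. The 1 lower gene was Ctsb (-0.62 ± 0.13, edgeR adjusted p = 0.0168), whose batch 1 value was the lowest of the 3 in each group but D2A1 3D. No member passed without batch 2 or without batch 3 (21 and 22 at an unadjusted p under 0.05), and 11 passed without D2A1 3D replicate 1, D2A1 3D replicate 2, D2.OR 2D replicate 3, D2.OR 3D replicate 1 or D2.OR 3D replicate 3. Of all genes 13.3% were called in the fit reported, 0.729% without batch 2, 1.45% without batch 3 and 7.61% to 8.65% in the fits with 11 members. At an unadjusted p under 0.05 the fit reported had 31 members and 4890 of 16823 genes. The labels name the batch only by its number, and what differed between batches was not tested.

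The promoter letters were set beside these calls as counts only. Among genes with a window, the core CACGTG occurred in 2 of the 9 lower in D2A1 3D (22.2%) and in 11 of the 31 not called there (35.5%). It also occurred in 7 of the 16 that were higher in batch 1 (43.8%), against 32.5% of the 40 members with a window. Of the 5 genes whose stretches are printed, only Ctsa was called lower in D2A1 3D, and Ctsa, Lamp1, Mcoln1 and Atp6v0d1 were called higher in batch 1. Ctsd, Lamp1, Mcoln1 and Atp6v0d1 were also lower in 3D than in 2D in each batch of D2A1. Their log2 changes were -0.58, -0.38, -0.41 and -0.63, with edgeR adjusted p of 0.0642, 0.0594, 0.0608 and 0.0544, close to the threshold. The split by call therefore cannot show whether the letters go with the fall.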

How the data were processed

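The authors checked the reads of 12 RNA-seq libraries with FastQC 0.11.4, trimmed them with Trimmomatic 0.32, aligned them to GRCm38 with STAR 2.5.3 and quantified the genes of GENCODE M15 with RSEM 1.3.0. The deposited expected counts are not normalized, and RSEM shares out reads that fit several genes. The deposited TPM values were scaled by the authors for gene length and library size. FPKM was not used. The strand setting of the counting is not given in the sources used here. Exonic overlap with an opposite-strand gene that reached 1 TPM in a library was found in GENCODE M21 for 13 of the 47 genes.

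Expected counts were rounded and fitted in edgeR 4.0.16 (R 4.3.3) with TMM normalization, its filter on low counts, 4 groups and the batch, in a quasi-likelihood test with Benjamini-Hochberg adjustment over 16823 genes. The members and lists were chosen with earlier results of these data known. Replicate numbers pair the libraries, since the labels give the batch; deviations from group means correlated at 0.0758 to 0.511 (median 0.267) over 18 same-numbered pairs and had a median of -0.195 otherwise. Values are given for the 6 largest called changes in each direction and contrast, the smallest p in the 2D line contrast and the highest median TPM of each class, the 3 smallest p where fewer than 3 members were called, and Lamp1, Lamp2, Tfeb and Gusb. Of each pathway list, the 2 smallest p in the 2D line contrast and the smallest in the interaction were named, with Glb1. Asah1 in the line contrasts and other values outside this rule were chosen after their values were seen. Promoter windows came from RefSeq. Alternatives used DESeq2 1.42.0, limma 3.58.1 on log2(TPM + 1) or log2(TPM + 0.1), DESeq2 size factors, no filter, at least 10 counts in every library, no batch term, and each batch or library left out. The scripts were tested on simulated data. Some genes of the pathway lists are counted but not reported here by name.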

Additional observations from a re-analysis of the deposited data

Results flagged for a closer look

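For 6 lysosome genes the difference between 3D and 2D had one sign in all 3 batches of one line and the opposite sign in all 3 batches of the other. Ctsf changed by 0.63 on the log2 scale in D2.OR and by -1.31 in D2A1, an interaction of 1.94 (edgeR adjusted p = 0.11). Ctsh changed by -0.61 and 0.75, an interaction of -1.36 (edgeR adjusted p = 0.204). The interaction was 0.739 for Npc1 (edgeR adjusted p = 0.0974), 0.554 for Mcoln1 (0.154), 0.365 for Atp6v1h (0.19) and 0.334 for Fuca1 (0.282). The difference between the lines had one sign in all 3 batches in 2D and the opposite in all 3 in 3D for 4 genes, Npc1 again (0.739), Tpp1 (0.732, edgeR adjusted p = 0.135), Atp6ap1 (0.417, 0.152) and Tfeb (-0.626, 0.287). None of these interactions passed the threshold after adjustment over all genes. The rules look at sign only, and Fuca1 met the first with changes of 0.09 in D2.OR and -0.24 in D2A1. The share of all genes that meet these rules was not taken, so the counts of flagged genes have no background beside them.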

How the results depend on the processing

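Main counts of members called were 29 and 34 between lines in 2D and 3D, 12 and 0 between cultures in D2A1 and D2.OR, 0 for the interaction and 18 between batches. Without the replicate block (the batch term that pairs the libraries) 19 were called in 2D and 0 between cultures in D2A1, and the batch contrast could not be fitted. DESeq2 called 29 between cultures in D2A1, 7 in D2.OR and 8 in the interaction. With no filter on low counts 2 were called in D2.OR, and limma on log2(TPM + 0.1) called 23 in D2A1 (6.75% of all genes). With each batch or library left out, the counts ran from 12 to 35 in 2D, 21 to 36 in 3D, 0 to 7 between cultures in D2.OR, 0 to 32 in D2A1, 0 to 17 for the interaction and 0 to 24 between batches. The share of genes with a promoter motif was 15% for the longer TCACGTGA in place of the core. The log2 difference of Hexa in 2D ran from -0.0109 (without D2A1 2D replicate 1, a reversal) to 0.46 with libraries left out. The limma fits moved the median of all genes by up to 0.136 on the log2 scale (interaction). The cause of these changes was not tested. With 3 libraries a group, precision is limited by the spread between libraries, and for Ctss, Ctsk and Cln8 in D2.OR by few counts.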
